A study of Homo sapiens with 31 samples.

Results

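EVI1, the zinc finger transcription factor encoded by MECOM, is switched on by chromosome 3 rearrangements in a high-risk form of acute myeloid leukemia, where it holds blood progenitors in an immature state. It binds the corepressor CTBP2 through a short PLDLS-type peptide motif, and CTBP2 in turn docks onto many DNA-binding proteins that carry such a motif and brings histone-modifying enzymes to them. Chromatin immunoprecipitation followed by sequencing (ChIP-seq) maps where such proteins sit on DNA, and a peak is a stretch in which the precipitated reads outnumber the local background.

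The sites described here are those at which a peak was called in every one of 13 deposited peak lists, and they are called core sites below. The starting set was 37227 intervals that held a peak in both untreated CTBP2 lists of an inducible MUTZ3 experiment, made by merging the overlapping peaks of those 2 lists (76725 merged intervals held a peak in either list). Of these, 3049 overlapped by at least 1 bp a peak in each of the other 11 lists, which is 8.19% of the starting set. Because the core sites were chosen by the peak calls themselves, their call number, fold enrichment, peak width and rank are given as a description and were not tested, whereas gene position, neighbourhood and DNA sequence took no part in the choice.

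All but 1 of the lists came from MUTZ3, an acute myeloid leukemia line in which EVI1 is switched on by a rearranged chromosome 3. For 8 of them MUTZ3 carried pCW-4xPLDLS, a doxycycline-inducible peptide with repeats of the CTBP-binding motif, and was left untreated or given doxycycline (dox) for 72 h, with CTBP2 and EVI1 each profiled in 2 libraries per treatment. A further pair of CTBP2 lists came from MUTZ3 with a retroviral 4xPLASS construct, whose altered motif serves as the inactive control. CTBP2 and EVI1 in MUTZ3 without a construct gave 1 list each, and the last was CTBP2 in untreated MOLM1, an EVI1-positive line from a blast crisis of chronic myeloid leukemia that carries a dox-inducible shRNA against EVI1. The MUTZ3 derivatives with the inducible peptide were bulk transduced populations and the MOLM1 line was derived from a clone. The labels did not say that libraries of a group came from separate cultures, so the spread between them may be technical. The labels also gave different crosslinking for the list of unmodified CTBP2 (formaldehyde alone) than for the rest (formaldehyde with DSG). For the PLASS and MOLM1 libraries the study's description of the crosslink differs from the labels, and the part of crosslinking in what follows was not tested. The lists hold no read counts, so depth is unknown, and fold enrichments were not scaled between libraries.

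Several core sites are shown here because later results turn on them, as 101 bp windows around the summit of the peak in untreated CTBP2 replicate 1 (GRCh37, the build of the lists; plus strand; 5′ to 3′). Capitals mark matches, on either strand, to 9 short motifs, and other motifs counted further on are not marked. The 9 were AGGAAGT for the ETS family, its form with a CpG spelled CCGGAAG, the RUNX letters TGTGGTT, those of the GATA family (AGATAA), of AP-1 (TGANTCA), the E-box CAGGTG, and the CEBP letters TTGCGCA. For EVI1 itself they were CAAGATA for the first zinc finger domain and GATGAG for the second, and a run of the former followed by A also holds the motif of the GATA family. The first 3 are among the 10 sites that ranked highest over all lists, and the others are nearest to genes of the lists described below. The windows at GTF3C5, CSF1R and ITGAM each held a single AP-1 or GATA match. RUNX matches were present near SLC7A10, FLI1, ZEB2 and SMAD3, and 5 GATGAG matches lay in a run of repeated units at HELT. At MPO an ETS, a GATA and an EVI1 match overlapped in 14 bases, the window nearest to RPLP1 held 5 matches, and that nearest to KLF4 held none.
GTF3C5, chr9:135878519-135878619: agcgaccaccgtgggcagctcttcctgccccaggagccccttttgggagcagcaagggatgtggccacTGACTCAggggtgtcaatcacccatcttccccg
SLC7A10, chr19:33751741-33751841: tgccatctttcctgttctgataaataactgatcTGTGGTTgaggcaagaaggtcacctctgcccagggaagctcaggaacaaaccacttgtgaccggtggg
HELT, chr4:185888480-185888580: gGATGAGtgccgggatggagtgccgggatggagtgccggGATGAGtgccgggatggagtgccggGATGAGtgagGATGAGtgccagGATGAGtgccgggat
FLI1, chr11:128516170-128516270: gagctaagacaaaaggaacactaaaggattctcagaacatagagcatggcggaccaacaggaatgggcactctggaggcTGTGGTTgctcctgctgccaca
KLF4, chr9:110523385-110523485: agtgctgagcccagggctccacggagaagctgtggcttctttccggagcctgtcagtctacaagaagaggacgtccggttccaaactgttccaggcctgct
ZEB2, chr2:145461625-145461725: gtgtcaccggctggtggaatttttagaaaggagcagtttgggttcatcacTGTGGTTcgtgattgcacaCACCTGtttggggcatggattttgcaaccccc
SMAD3, chr15:67390722-67390822: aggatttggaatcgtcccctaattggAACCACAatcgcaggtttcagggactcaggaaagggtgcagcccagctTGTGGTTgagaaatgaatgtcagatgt
MPO, chr17:56359155-56359255: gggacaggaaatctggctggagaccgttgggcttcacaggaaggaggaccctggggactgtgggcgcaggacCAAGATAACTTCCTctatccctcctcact
ITGAM, chr16:31255534-31255634: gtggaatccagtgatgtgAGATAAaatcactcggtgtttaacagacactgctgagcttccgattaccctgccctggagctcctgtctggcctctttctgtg
CSF1R, chr5:149461488-149461588: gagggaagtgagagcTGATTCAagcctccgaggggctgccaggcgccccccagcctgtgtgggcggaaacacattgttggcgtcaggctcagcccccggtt
RPLP1, chr15:70051489-70051589: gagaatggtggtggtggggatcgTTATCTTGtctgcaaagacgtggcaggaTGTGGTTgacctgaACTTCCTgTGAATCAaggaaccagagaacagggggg

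The number of lists that called a site was broadly spread rather than split into sites of every list and sites of few lists. Only 1145 sites were called in no list beyond the untreated CTBP2 pair, the most frequent number was 8 lists (4505 sites), and 3732 sites were called in 12. Of those 3732, 2735 (73.3%) lacked a call in PLASS replicate 1 only, the shortest list with 6688 peaks. The unmodified EVI1 list alone was missing at 294 sites, MOLM1 at 281 and unmodified CTBP2 at 174, while untreated EVI1 replicate 1 alone was missing at 0. Core membership therefore followed the shortest list most closely: without PLASS replicate 1 the same rule chose 5784 sites, and leaving out any other list gave 3000 to 3343.

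The sites just outside the rule were weaker by median. Median fold enrichment (the ratio of reads to the local background at the peak) in untreated CTBP2 replicate 1 was 16.6 at core sites, 12.8 at sites called in 12 lists and 13 at those that lacked PLASS replicate 1 only. In PLASS replicate 2, the longer list of the same construct, the medians were 10.2 at core sites and 6.75 at sites missing only from replicate 1. The strongest sites called in 12 lists all lacked MOLM1. They were an intron of FABP6, which encodes a bile acid binding protein, at chr5:159624021-159627128, an intergenic interval nearest to MRGBP, a subunit of a histone acetyltransferase complex, and an exon of KNDC1. The FABP6 site had a fold enrichment of 64.4 and 61.2 in the untreated CTBP2 libraries and 85.3 and 123 in the untreated EVI1 libraries. On the inside of the rule, the lowest -log10 q that a core site had in any list (the caller's evidence after correction, where larger is stronger) was 1.31, the median over core sites was 5.91, and 89 core sites (2.92%) had at least 1 call under 2. PLASS replicate 1 held the weakest call for 1642 core sites (53.9%).

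Core sites were made up mostly of strong peaks. The rank percentile of a site is the rank of its strongest peak by fold enrichment divided by the number of peaks in that list, so that low values are strong. Its median over core sites was 6.36 and 5.57 in the untreated CTBP2 lists, 6.30 and 5.10 in untreated EVI1, 6.75 and 7.30 in EVI1 with dox, and 14.5 and 14.8 in CTBP2 with dox. It was 18.3 in unmodified CTBP2, 17.7 in unmodified EVI1, 42.3 and 9.08 in PLASS replicates 1 and 2, and 9.72 in MOLM1. Thus core sites ranked highest in the long lists of the inducible experiment and spread over nearly the whole range in PLASS replicate 1. Since rank is divided by list length, the same sites fill a larger part of a short list, and part of this contrast is set by length. Conversely, core sites held 4.53% of the peaks of untreated EVI1 replicate 2 and 51.2% of those of PLASS replicate 1, but between 46.4% (MOLM1) and 74.2% (PLASS replicate 2) of the peaks ranked in the first 1000 or so of each list.

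**Figure D1:**
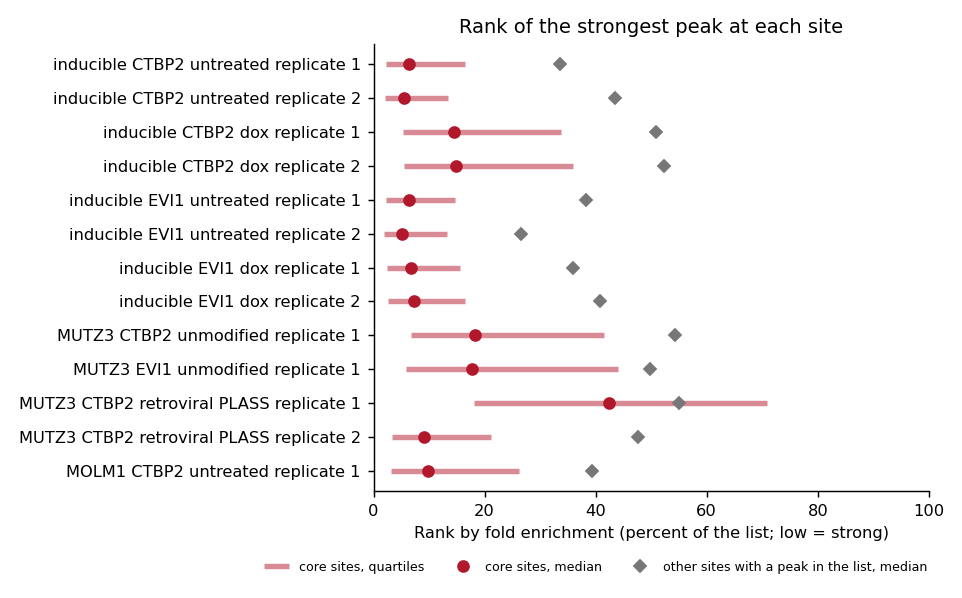
For each of the 13 lists, the rank percentile by fold enrichment (horizontal axis, 0 is the strongest peak) is shown at the core sites and at the other sites of the starting set, as medians with the core sites' interquartile range. Core medians lie between 5.10 and 18.3 in 12 lists and at 42.3 in PLASS replicate 1.

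Core sites came from every level of strength, most of them from the highest. When the 37227 sites were divided into quintiles by fold enrichment in untreated CTBP2 replicate 1, 27.3% of the strongest quintile were core, against 7.20%, 3.21%, 1.92% and 1.30% of the next 4. The mean rank percentile of a core site over the 13 lists ran from 0.138 to 70.8 with a median of 17.8 and quartiles of 10.4 and 26.9. There were 116 core sites (3.80%) in the upper 10% of all 13 lists and 971 (31.8%) in the upper 50% of all 13. No core site lay in the lower 50% of every list, and 2078 lay there in at least 1.

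The site with the lowest mean rank percentile, 0.138, was chr9:132649920-132651781, in a UTR exon of FNBP1, which encodes a membrane-bending protein that binds formins. The nearest start was that of C9orf78, 52867 bp away, and the start of FNBP1 itself was 154459 bp away. Fold enrichment there was 47.2 and 32.0 in the untreated CTBP2 libraries, 31.6 and 42.0 in CTBP2 with dox, 49.4 and 75.1 in untreated EVI1, and 108 and 103 in EVI1 with dox. The unmodified CTBP2 and EVI1 libraries had 30.5 and 59.0, the PLASS libraries 24.6 and 42.8, and MOLM1 33.2. The CTBP2 values with and without dox overlapped, whereas both EVI1 values with dox lay above both without.

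Downstream of GFI1B, which encodes a transcriptional repressor needed for erythroid and megakaryocyte development, chr9:135877610-135880896 had a mean rank percentile of 0.220. It was 59182 bp from the start of GFI1B, and the nearest start was that of GTF3C5, a subunit of an RNA polymerase III factor. Its fold enrichment was 66.9 and 51.0 in untreated CTBP2 and 22.6 and 21.2 with dox, and 83.7 and 134 in untreated EVI1 and 82.3 and 73.8 with dox. In unmodified CTBP2 and EVI1 it was 27.6 and 51.4, in PLASS 14.9 and 38.0, and in MOLM1 33.1. Here the dox values lay below the untreated ones for both proteins, more so for CTBP2 (log2 ratio -1.42, means of 2 libraries each) than for EVI1 (-0.44).

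A further site lay 41649 bp from the start of CEBPA, which encodes a transcription factor required for granulocyte development. It was chr19:33750836-33753141, upstream of SLC7A10 (an amino acid transporter), with a mean rank percentile of 0.504. Fold enrichment was 33.7 and 48.6 in untreated CTBP2, 30.2 and 28.8 with dox, 43.9 and 70.5 in untreated EVI1, and 99.6 and 77.3 with dox. Unmodified CTBP2 and EVI1 gave 38.5 and 16, PLASS 17.8 and 37.4, and MOLM1 60.0. The window printed above for this site held TGTGGTT.

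The other sites among the 10 highest ranked lay away from gene starts as well. They were nearest to KCNU1 (a potassium channel gene; 0.193), BYSL (ribosome assembly; 0.257, in a UTR exon of CCND3, the cyclin D3 gene), IQSEC1 (an activator of ARF GTPases; 0.260), ANLN (an actin-binding protein of dividing cells; 0.345, in an intron of EEPD1), TMEM121 (0.475), HELT (0.519) and CEP68 (a centrosome protein; 0.637, in a UTR exon of CEP68). None of the 10 was within 1 kb of the start of a protein-coding gene. The TMEM121 site was 566543 bp from the nearest such start, and immunoglobulin gene segments were not counted as starts. The HELT site had 78.7 and 76.9 in untreated CTBP2, the highest CTBP2 values of the 10, and its summit lay in the repeated units shown above, and their part in the value was not tested. At the other end, the core site with the highest mean rank percentile, 70.8, was in an intron of GRIN2D, a glutamate receptor gene, with fold enrichments from 3.27 in untreated CTBP2 replicate 2 to 15.8 in EVI1 dox replicate 1.

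Core sites were wider than the rest and their summits lay closer together. Median interval width was 1110 bp (quartiles 775 and 1640) against 681 bp at the other 34178 sites. The distance from the untreated EVI1 summit to the CTBP2 summit in replicate 1 had a median of 35 bp at core sites and 57 bp at the others that had both peaks. For the untreated CTBP2 pair it was 37 bp against 58 bp, and for MOLM1 against untreated MUTZ3 it was 55 bp against 72 bp. At 1397 core sites (45.8%) all 13 summits lay within 100 bp of their median position, and at 1683 (55.2%) they spanned at most 200 bp. Width and summits come from the peak calls that the rule used and are descriptions only. Their relation to strength was not tested.

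Gene positions took no part in the rule. A gene start (TSS) here is the 5′ end of the gene entry of 20176 protein-coding genes. Alternative starts, non-coding genes, and immunoglobulin and T cell receptor segments were therefore not counted. Distances were measured from the summit in untreated CTBP2 replicate 1 for the 3043 core sites on chromosomes 1 to 22, X and Y. Within 1 kb of a TSS lay 688 core sites, or 22.6% (95% Wilson interval 21.2 to 24.1), against 24.3% of the other sites and 28.4% of those called in 12 lists. A further 18.7% of core sites lay 1 to 10 kb away, against 20.3% of the other sites. At 10 to 100 kb lay 43.1% against 42.5%, and farther away 15.5% against 12.8%. By feature, 36.5% of core sites were in introns beyond 1 kb of a TSS, against 34.0% of the other sites. Intergenic sites made up 34.1% against 34.5%, and sites in exons 6.77% against 7.24%. The median distance was 17288 bp for core sites and 13999 bp for the other sites. Intervals here and below cover counting error only, since sites share libraries and are not replicates.

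How the promoter share compared at like strength turned on which untreated CTBP2 library measured the strength. In the strongest quintile by replicate 1, 26.0% (24.2 to 28.0) of core sites and 36.3% (35.1 to 37.6) of the other sites lay within 1 kb of a TSS. By that library the shares in the second were 22% against 33.7%, in the third 13% against 27.1%, in the fourth 5.59% against 17.6%, and in the fifth 3.09% against 10.7%, with core sites lower in all 5. By replicate 2, which was added after the values for replicate 1 were seen, the strongest quintile had 19.0% (17.4 to 20.6) of core and 20.5% (19.5 to 21.7) of other sites. The share was then higher at core sites in the second, at 32.9% (28.9 to 37.1) against 25.6% (24.6 to 26.7), and in the third, at 40.3% (32.4 to 48.8) against 25% (24.0 to 26.0). In the fourth and the fifth, with 52 and 20 core sites, it was 34.6% against 24.0% and 35.0% against 25.3%, with intervals that overlapped. Thus no direction of the promoter share at like strength held in both libraries beyond the strongest quintile, where the intervals by replicate 2 overlapped. The promoter share of all core sites also moved with the lists required: it was 25.7% without PLASS replicate 1.

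**Figure D2:**
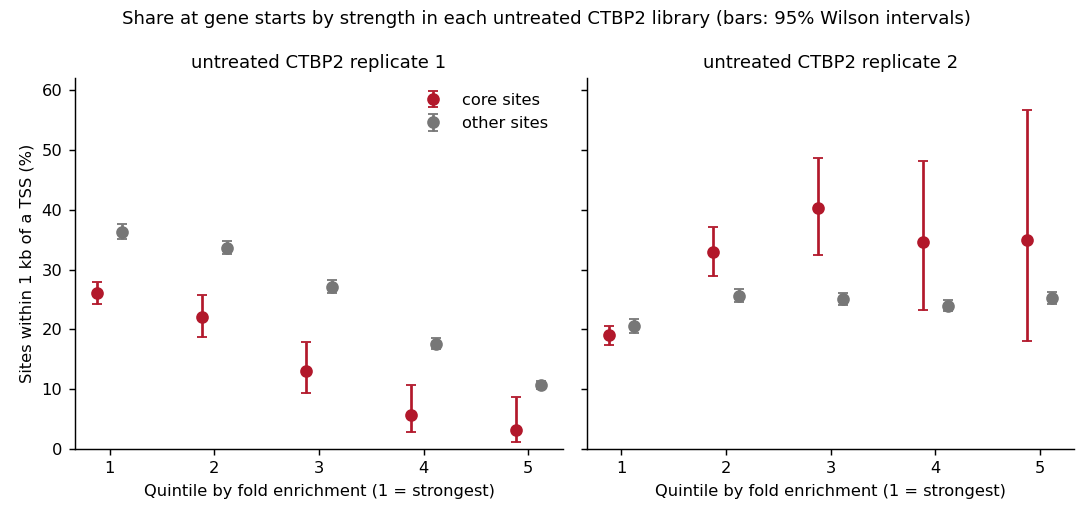
Percent of sites within 1 kb of a TSS (vertical axis) in each quintile of fold enrichment (horizontal axis, 1 is the strongest) in untreated CTBP2 replicate 1 (left) and replicate 2 (right), for core and other sites, with 95% Wilson intervals. Core sites lie below the other sites in every quintile by replicate 1 (26.0% against 36.3% in quintile 1) and above them in quintiles 2 to 5 by replicate 2 (40.3% against 25% in quintile 3).

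Core sites near and far from gene starts differed in which libraries they were strong in. The ratio of the median fold enrichment within 1 kb of a TSS to that over 10 kb away was 1.11 in untreated CTBP2 replicate 1 (17.8 against 16) and 0.967 in untreated EVI1 replicate 2 (21.0 against 21.7). It lay between 0.593 and 0.897 in the other 11 libraries. Untreated CTBP2 replicate 2 had 0.765 and untreated EVI1 replicate 1 had 0.737, so in each untreated pair 1 library stood above its partner. MOLM1 had the lowest ratio, 0.593 (10.2 against 17.2).

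**Figure D3:**
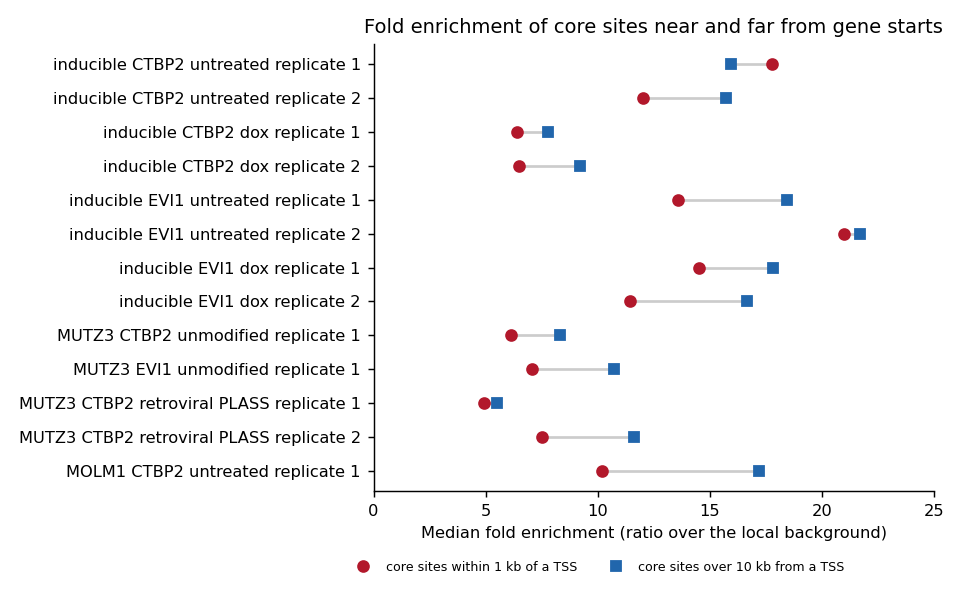
Median fold enrichment (horizontal axis) in each of the 13 libraries at core sites within 1 kb of a TSS (circles) and over 10 kb away (squares). Promoter sites are higher in untreated CTBP2 replicate 1 only, where the medians are 17.8 and 16, and MOLM1 shows 10.2 and 17.2.

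By replicate number, the untreated CTBP2 libraries paired crosswise with the untreated EVI1 libraries when likeness was measured over all 3049 core sites. Spearman's rho of fold enrichment was 0.747 between untreated CTBP2 replicate 1 and untreated EVI1 replicate 2, above the 0.587 between the untreated CTBP2 replicates. Untreated CTBP2 replicate 2 was more like EVI1 replicate 1 (0.623) than EVI1 replicate 2 (0.430). The CTBP2 libraries with dox had a rho of 0.777 and the EVI1 libraries with dox 0.894. Over all 78 pairs rho ran from 0.128 to 0.894 with a median of 0.404, so the order of strength within the core differed widely between libraries although each had called every site. These are descriptions over sites that share genomic background, and the labels give no reason for the crossed pairing.

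With dox, that is with the CTBP-binding peptide expressed, CTBP2 fold enrichment at core sites was lower. Its median was 16.6 and 14.5 in the untreated libraries and 7.31 and 8.22 in the dox libraries, groups that did not overlap. The median log2 ratio of the 2 dox libraries to the mean of the untreated ones was -1.03 and -0.88, with a mean of -0.95 ± 0.11 (SD, n = 2). Both dox values lay below both untreated values at 2344 core sites (76.9%), where 72.5% of all 14297 sites with the 4 CTBP2 lists did so, and above both at 43 (1.41%). At the 10282 other sites called in all 8 inducible lists the mean was -0.87. Since a core site had to be called in both dox lists, sites at which CTBP2 went undetected with dox could not enter, and the core values do not measure the effect over all sites.

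EVI1 at the same sites differed less. Its median fold enrichment was 16.8 and 21.8 without dox and 16.7 and 15.0 with it, and the mean log2 ratio was -0.22 ± 0.13 (SD, n = 2), against -0.21 at the other sites called in all 8 lists. Both dox values lay below both untreated ones at 1083 core sites (35.5%), where 37.5% of 26771 sites with the 4 EVI1 lists did so, and above both at 411 (13.5%). The difference rested on untreated replicate 2: the median log2 ratio was -0.43 against that library alone and -0.05 against replicate 1 alone.

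At core sites within 1 kb of a TSS the median CTBP2 log2 ratio was -1.16, against -0.87 at those over 10 kb away. Taken against untreated replicate 1 alone the 2 medians were -1.45 and -0.91, and against replicate 2 alone they were -0.87 and -0.84. The gap between promoter and distal core sites therefore came almost wholly with replicate 1, the library in which promoters stood high.

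Single core sites ranged widely around these medians. The lowest CTBP2 ratio, -2.92, was at an intergenic site 46482 bp from the start of VPS26C, a subunit of an endosomal sorting complex. Its CTBP2 fold enrichment was 23.4 and 20.9 without dox and 2.61 and 3.28 with it, and its EVI1 was 18.2 and 30.3 without and 8.73 and 6.47 with dox. The next lowest were near PTK2, the focal adhesion kinase gene (-2.79), and inside MAD1L1, a spindle checkpoint gene, where the nearest start was that of ELFN1 (-2.76). At all 3 sites EVI1 was lower with dox too, with log2 ratios of -1.64, -1.63 and -1.61.

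The highest CTBP2 ratios, in turn, came at sites that were weak in untreated replicate 1. Near ABCD3, a peroxisomal transporter gene (1.66), CTBP2 fold enrichment was 4.85 and 14 without dox and 20.6 and 33.0 with it. At P2RY14, a nucleotide-sugar receptor gene (1.43), with the summit 201 bp from the TSS, it was 3.13 and 17.3 without and 19.7 and 19.9 with dox. The third was nearest to DNAJB6, a chaperone gene (1.39). EVI1 was higher with dox at all 3, at 1.76, 2.21 and 0.97. Untreated EVI1 was 11.9 and 5.46 at ABCD3, 11.9 and 2.70 at P2RY14, and 10.8 and 11.1 at DNAJB6. The 2.70 was the lowest value of any core site in untreated EVI1 replicate 2. For CTBP2 at ABCD3 and P2RY14, untreated replicate 2 was nearer to the dox libraries than replicate 1 was.

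Core sites lay mostly far from one another, and a few neighbourhoods held several. The median distance from a core site to the next was 104113 bp, 353 (11.6%; 10.5 to 12.8) had another core site within 10 kb and 1081 (35.5%) within 50 kb. The share within 10 kb was 18.9% without PLASS replicate 1 and 5.56% when a fold enrichment of at least 5 was required in every list. To the next site of any kind the median was 6647 bp for core sites and 7779 bp for the others, with 59.9% and 56.0% within 10 kb. Divided into windows of 100 kb, the genome had 2476 windows with a core site among 12431 with any site: 2031 held a single core site, 340 held 2, 88 held 3, 12 held 4 and 5 held 5 or more.

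Of those 5 windows, chr15:70700001-70800000 held most, 6 core sites of 16 sites, and contained no protein-coding gene. The nearest starts were those of TLE3, which encodes a corepressor of the Groucho family, and UACA. On chromosome 10, chr10:81000001-81100000 held 5 of 12 sites in and beyond ZMIZ1, a transcriptional coregulator gene, with a best mean rank percentile of 0.855, and chr10:73500001-73600000 held 5 of 17 around CDH23, VSIR (an immune checkpoint receptor) and PSAP. All 5 sites in chr11:118100001-118200000 were core, and that window spans MPZL3, MPZL2 and CD3E, a chain of the T cell receptor complex. The window chr22:37600001-37700000 held 5 of 13 around RAC2, a GTPase of blood cells, SSTR3 and CYTH4, with a median width of 2050 bp and a best mean rank percentile of 0.755.

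By nearest TSS, core sites were assigned to 2385 protein-coding genes, 11.8% of the 20176, whereas 67.6% were nearest to some site of the starting set. The count rested on PLASS replicate 1, without which 4016 genes (19.9%) were nearest to a site called in every other list. There were 1922 genes with a single core site, 332 with 2, 87 with 3, 30 with 4 and 14 with 5 or more. A core site within 1 kb of the TSS was found for 687 genes (3.41%). Nearest distance is a label and not evidence of regulation: of 1732 core sites inside a gene, 440 (25.4%) lay in a gene other than the one with the nearest start.

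Among the genes with most core sites were several regulators of transcription and signalling. RUNX3, a blood transcription factor gene, had 6 of 33 sites, of which 1 was at the TSS (2 bp) and 3 lay upstream, the strongest 57730 bp away with a mean rank percentile of 3.94. All 6 core sites assigned to CLIC6 (of 19 sites) lay in introns of RUNX1, the leukemia gene that encodes a master regulator of blood stem cells, and the strongest of them, chr21:36280656-36281472, had a mean rank percentile of 2.17. DUSP6, a phosphatase of ERK kinases, had 6 of only 8 sites, 1 of them 159 bp from its TSS and 3 over 100 kb away.

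RAP1GAP2, which encodes a GTPase-activating protein for RAP1, had 6 core sites of 11, all in introns between 30709 and 93256 bp from its TSS. The strongest, 3583 bp wide, had a mean rank percentile of 1.00. The 6 of 23 sites assigned to UACA were in the chromosome 15 window above or next to it. PPIF (a mitochondrial peptidyl-prolyl isomerase) had 5 of 16, and 3 of these were inside ZMIZ1. HS6ST1 (a heparan sulfate sulfotransferase), RYBP (a Polycomb subunit) and NEK6 (a mitotic kinase) had 5 each, of 20, 20 and 24, and for HS6ST1 all 5 were intergenic and over 100 kb away.

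The gene lists here and below were chosen with earlier results of these data known, so their shares are descriptions only. Transcription factor genes of blood cells stood above the genome in how many had a core site. Of 40 such genes, 19 (47.5%; 32.9 to 62.5) were nearest to a core site, against 11.8% of all protein-coding genes. These genes also had more sites of any kind, with 39 of 40 nearest to some site (97.5%, where 67.6% of all genes were). Counted per site the gap was smaller: 38 of their 295 sites (12.9%; 9.53 to 17.2) were core, against 8.26% of all sites with a nearest gene. By lowest mean rank percentile they were led by KLF4, a factor of monocyte differentiation (2.91, 270672 bp away), RUNX3 (3.94), FLI1, an ETS factor of megakaryocytes (4.66), and ETV6, an ETS repressor (6.02). GATA2, SPI1 and ERG had no core site nearest to them, and GFI1B, RUNX1 and RUNX2 had one only when the gene around the summit was counted too (22 of 40). Without PLASS replicate 1, 25 of the 40 genes and 20.7% of their sites met the rule, where 19.9% of all genes and 15.7% of all sites did.

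At FLI1 the strongest of 3 core sites lay 7468 bp from the TSS (the window printed above is from another, 40210 bp upstream). Its fold enrichment was 19.1 and 19.0 in untreated CTBP2, 8.58 and 7.36 with dox, 32.0 and 37.3 in untreated EVI1, and 22.5 and 18.8 with dox. At the KLF4 site it was 17.8 and 20.8 in untreated CTBP2, 16.9 and 18.7 with dox, 27 and 34.5 in untreated EVI1, and 56.7 and 48.0 with dox. The dox and untreated CTBP2 values were thus apart at FLI1 and overlapped at KLF4, and EVI1 was lower with dox at FLI1 and higher at KLF4.

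A large share of the sites of neutrophil and monocyte genes was core. Of the 23 genes, 18 (78.3%) were nearest to some site, against 67.6% of all genes. They had 36 sites, of which 13 (36.1%; 22.5 to 52.4) were core, against 8.26% of all sites. These were at 9 genes (39.1%; 22.2 to 59.2), against 11.8% of all genes. Without PLASS replicate 1, 14 of the 36 sites (38.9%) and 10 genes (43.5%) met the rule, against 15.7% of all sites and 19.9% of all genes. The only site of MPO, which encodes the myeloperoxidase of neutrophil granules, was core and lay 909 bp from the TSS. Both sites of CD33 (a sialic acid-binding receptor of myeloid cells), 3 of 6 at ITGAM (an integrin of granulocytes and monocytes) and 2 of 4 at CD14 (the lipopolysaccharide coreceptor of monocytes) were core as well. ELANE, PRTN3, CTSG and LYZ had none.

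The MPO site, whose sequence is printed above, had CTBP2 fold enrichments of 27.8 and 17.9 without dox and 6.02 and 9.71 with it. EVI1 there was 36.7 and 48.8 without dox and 33.4 and 34.6 with it, unmodified CTBP2 and EVI1 were 7.79 and 27.6, PLASS was 6.85 and 12.1, and MOLM1 was 30.6. At the ITGAM promoter site, 46 bp from the TSS, CTBP2 was 16.4 and 17.0 without dox and 13.8 and 15.1 with it. MPO was therefore a site with a wide gap between the CTBP2 groups, while at the ITGAM promoter the groups did not overlap but lay close together. The other core sites of ITGAM differed from it. CTBP2 15704 bp upstream of the TSS was 6.63 and 13 without dox and 12.5 and 16 with it, and 6104 bp upstream it was 8.06 and 7.14 without and 8.33 and 9.61 with dox. Thus the groups overlapped at the farther site, and at the nearer both dox values lay above both untreated ones.

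Growth factor receptor and stem cell surface genes had core sites at 8 of 20 (40.0%; 21.9 to 61.3) and 8 of 19 (42.1%; 23.1 to 63.7), against 11.8% of all genes. The receptors were led by CSF1R, the receptor for macrophage colony-stimulating factor (3.96, 31397 bp from the TSS), TGFBR1, the type I receptor for TGF-β (5.61), and KIT, the stem cell factor receptor (14). Among surface genes, CD244, a receptor of the SLAM family (5.98), CD34, the antigen of blood stem cells (7.75), CD47, the signal that restrains phagocytosis (7.98), and CD44, a hyaluronan receptor (8.51), came first. CD34 and CD44 had 4 core sites each, of 19 and 14. Per site, 10 of 113 at receptor genes (8.85%; 4.88 to 15.5) and 15 of 105 at surface genes (14.3%; 8.85 to 22.2) were core, against 8.26% of all sites, a value inside the receptors' interval.

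The 4 core sites of CD34 included its promoter, 245 bp from the TSS, and a site 12385 bp upstream. CTBP2 at the promoter was 18.9 and 12.6 without dox and 8.27 and 6.70 with it, and at the upstream site 26.9 and 26.7 without and 17.0 and 18.5 with dox. The groups overlapped at the site 38102 bp away, with 11.7 and 6.80 without and 8.33 and 7.16 with dox, and were apart at that 77755 bp away, with 20.5 and 12.1 without and 7.18 and 9.60 with dox. The CSF1R site had 33.1 and 24.5 without and 10.9 and 13.4 with dox. EVI1 at the CSF1R site was 21.4 and 44.7 without dox and 29.3 and 22.5 with it. The CTBP2 groups were thus apart at CSF1R and at 3 of the 4 sites of CD34, and at CSF1R the EVI1 groups overlapped.

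Genes of the EVI1 and CTBP corepressor machinery had a core site in 5 of 22 cases (22.7%; 10.1 to 43.4), and 9 of their 130 sites (6.92%; 3.68 to 12.6) were core. Both intervals included the values over all genes (11.8%) and all sites (8.26%). The genes were ZEB2 (5.30), a repressor that recruits CTBP, BCOR (9.42), the BCL6 corepressor, ZNF217 (14.9), a zinc finger protein of CTBP complexes, SMAD3 (25.8), a TGF-β effector that EVI1 binds, and RCOR1 (46.7), the CoREST scaffold. MECOM, CTBP1, CTBP2, HDAC1 and HDAC2 were not nearest to any core site. Of 15 genes described as EVI1 targets, which overlap the other lists, 8 (53.3%; 30.1 to 75.2) had one, and 10 of their 89 sites (11.2%; 6.22 to 19.5) were core, so that per site the interval included the 8.26% of all sites. They were led by ZBTB16, a zinc finger repressor (7.73), ADGRG1, an adhesion receptor of stem cells (13.8), and ITGA6, an integrin subunit (17.8).

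As for the corepressor machinery, the interval of each remaining list included the genome's share of 11.8%. Erythroid and megakaryocyte genes had 2 of 21 (9.52%; 2.65 to 28.9; GYPB and GYPC, both glycophorins), lymphoid genes 5 of 20 (25%; 11.2 to 46.9; led by CD3E at 5.19 and NOTCH1 at 5.45), and genes of other organs 0 of 20 (upper limit 16.1%). Cytosolic ribosomal protein genes had 9 of 75 (12%; 6.44 to 21.3), and only that of RPL37 was within 1 kb of the TSS. The best ranked, at RPLP1 (2.81), lay 306386 bp from its TSS, had fold enrichments of 32.9 and 44.2 in untreated EVI1, 46.9 in unmodified EVI1 and 38.7 in MOLM1, and is the printed window with 5 motif matches. All 3 sites of CD3E were core, in the chromosome 11 window given above.

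The DNA sequence under core sites differed from that under the other sites in a handful of short motifs. The motifs searched were also chosen with earlier results of these data known. In 201 bp windows centred on the summit in untreated CTBP2 replicate 1, the RUNX letters TGTGGTT were found on either strand at 12.7% of 3043 core sites (11.5 to 13.9) and at 5.98% (5.73 to 6.24) of 33805 other sites. Windows of the same length 1000 bp to either side of core sites held it in 3.61%. RUNX factors, among them RUNX1, direct the formation and maturation of blood cells. The ETS letters AGGAAGT were found at 20.9% of core and 13.9% of other sites, and at 4.17% of the flanking windows. ETS factors such as SPI1, FLI1 and ERG are the main regulators of myeloid and stem cell enhancers.

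The GATA letters AGATAA occurred at 10.3% of core and 5.34% of other sites. The flanking windows of core sites held them in 10.2%, near the share at core summits, and the other sites lay below their flanks (9.49%). Flanking windows were poorer in GC, with medians of 48.3% for core and 48.8% for other sites, against 57.2% and 57.7% at summits. The part of base composition in these shares was not tested. CAAGATA, which the first zinc finger domain of EVI1 recognises, was rare, at 1.71% (1.31 to 2.23) of core sites, 0.917% of other sites and 1.89% of core flanks. GATGAG, recognised by its second domain, was found at 15.1% of core and 11.1% of other sites, with 10.2% of core flanks. A match to such short letters is a description of the window and not evidence that a factor was bound.

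The E-box CAGGTG, which ZEB and E proteins bind, went the other way. It was found at 20.7% (19.3 to 22.2) of core sites and 26.0% (25.5 to 26.4) of other sites, and the core share lay near that of its flanks (21.7%). The GC-rich box GGGCGG of SP and KLF factors, frequent at promoters, was also less frequent at core sites (23.7% against 27%). TGANTCA of AP-1 stood at 7.72% against 6.23%, and CAGCTG at 18.1% against 16.5%. Median GC content was nearly the same, 57.2% at core and 57.7% at other sites.

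At like strength, too, the motif contrasts depended on the library used. In the strongest quintile by untreated CTBP2 replicate 1 the RUNX letters were at 12.3% of core and 5.99% of other sites, ETS at 21.1% and 14.8%, GATA at 10.1% and 4.79%, GATGAG at 14.9% and 10.9%, and CAGGTG at 21.9% and 26.0%. The RUNX share by replicate 1 was higher at core sites in all 5 quintiles, at 12.3% to 15.5% against 5.62% to 6.17%. In the strongest quintile by replicate 2, which held 2329 of the 3043 core sites, RUNX was at 14.7% (13.3 to 16.2) of core and 8.24% (7.51 to 9.03) of other sites, GATA at 11.3% and 7.98%, GATGAG at 15.3% and 11.7%, ETS at 22.9% and 20.3%, and CAGGTG at 19.7% and 21.3%. The RUNX, GATA and GATGAG shares of the strongest quintile were thus higher at core sites by both libraries, and by replicate 2 the intervals of ETS and of CAGGTG overlapped. By replicate 2 the RUNX shares in the second quintile were 7.09% and 7.13%, in the third 2.99% and 5.65%, in the fourth 3.85% and 5.25%, and in the fifth 10.0% and 4.41%. Outside the strongest quintile the higher RUNX share of core sites was therefore not seen by both libraries, apart from the fifth, where replicate 2 left 20 core sites.

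Around the summits of untreated CTBP2 replicate 2 the RUNX shares were 14.2% and 7.11%, and around those of untreated EVI1 replicate 1 they were 14.4% and 7.12%. With the same summits the CAGGTG shares were 18.1% against 23.2% and 17.5% against 19.7%.

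The RUNX share differed by position. Within 1 kb of a TSS the RUNX letters were at 3.49% of core sites and 1.97% of other sites, and over 10 kb away at 16.2% and 7.84%. At core promoters CCGGAAG, the CpG-containing ETS letters, were the more frequent form (18.6%, with AGGAAGT at 10.5%). Over 10 kb from a TSS the order was turned, with CCGGAAG at 5.55% and AGGAAGT at 23.9% of core sites.

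Away from promoters the motif shares followed the number of lists that called a site. From sites called in 2 lists to the core, over 10 kb from a TSS, RUNX went from 4.33% to 16.2%, ETS (AGGAAGT) from 9.47% to 23.9% and GATA from 4.06% to 12.3%. CAGGTG went from 54.5% of sites called in 2 lists to 20.1% of core sites. Distal sites called in 12 lists held RUNX, ETS, GATA and CAGGTG letters at 11.7%, 22.6%, 10.9% and 18.9%. The widest step between neighbouring numbers of lists was from 12 to 13 for RUNX and from 2 to 3 for CAGGTG (54.5% and 39.2%).

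ETS and RUNX letters occurred together in 96 core windows (3.15%; 2.59 to 3.84) and in 1.01% of the other windows. At least 1 of both ETS forms, the RUNX letters, the letters of the GATA family and those of the first EVI1 domain was present at 44.2% of core sites (42.4 to 46.0), at 39.9% of sites called in 12 lists and at 29.3% of all other sites, so that most core windows held none of the 5. ETS matches in core windows lay a median of 39 bp from the summit, with 62.9% within 50 bp, and RUNX matches lay a median of 40.5 bp away. The windows printed for SLC7A10, FLI1, ZEB2, SMAD3 and RPLP1 hold the RUNX letters, and those for MPO and RPLP1 hold ETS and GATA letters together.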

How the data were processed

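ChIP-seq peak lists of 13 of the 31 samples were used, and the other samples were not analysed here. The authors aligned reads to hg19 and called peaks per library, and the submitters' processing notes name bcl2fastq 1.8.4, Bowtie 1.1.1, MACS2 2.1.2 and deepTools 3.5.1. Each deposited list gives a peak's interval, its fold enrichment (a ratio over the local background), its -log10 p and -log10 q as the authors' caller wrote them, and its summit. No read counts were given, so the precision of single values is unknown.

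Intervals of the 2 untreated CTBP2 lists were merged where they overlapped by at least 1 bp, and a site took the strongest overlapping peak of each list. The selection was repeated with bedtools 2.31.1 and tested on simulated data. Genes, starts and UTRs came from GENCODE release 44 mapped to GRCh37, sequences from the GRCh37 genome, and shares have 95% Wilson intervals. Scripts used Python 3.11.15, numpy 2.4.6, pandas 2.3.3, scipy 1.17.1, pysam 0.24.0 and matplotlib 3.10.9. No significance test was made, because the calls chose the sites. Fold enrichments with dox were compared on the log2 scale as library means.

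The core sites and all gene and motif lists were chosen with earlier results of these data known. Named are the 10 core sites with the lowest and 3 with the highest mean rank percentile, the 10 genes and 5 windows of 100 kb with most core sites, the 3 sites with the lowest and highest CTBP2 ratio with dox, the 3 best ranked sites called in 12 lists, and up to 4 genes per list, of which some are not reported here. Genes of a list named as having no core site, the RPL37 site, and the printed windows were chosen after their values were seen. Alternatives were the other untreated library for strength, stricter calls, other overlaps and merging, other distances, ranks by -log10 p, other summits and leaving out each list in turn.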

Additional observations from a re-analysis of the deposited data

How the results depend on the processing

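No paired analysis was possible because the results come from no test. Requiring a -log10 q of at least 5 in every list left 1876 core sites and 1553 nearest genes, with 17.4% within 1 kb of a TSS and 8.58% within 10 kb of another core site. A fold enrichment of at least 5 in every list left 1133 sites and 996 genes, with 13.6% and 5.56% for these shares and a median rank percentile of 14.7. Merging over all 13 lists gave a median width of 1343 bp, 33.3% of core sites lay within 5 kb of a TSS, 35.5% lay within 50 kb of another core site, and ranks by -log10 p had a median of 15.0. With -log10 p in place of fold enrichment the CTBP2 log2 ratio was -1.45. Leaving out each list in turn gave 3000 to 5784 core sites, 2344 to 4016 genes, 21.8% to 25.7% within 1 kb of a TSS, widths of 855.5 to 1111 bp, 11.4% to 18.9% within 10 kb of another core site, rank percentiles of 17.8 to 21.3, and log2 ratios of -1.11 to -0.85 for CTBP2 and -0.43 to -0.061 for EVI1. PLASS replicate 1 gave the upper end for sites, genes, both shares and ranks. Alternatives chosen after seeing the data put the RUNX share at 14.2% (summits of CTBP2 replicate 2) and 14.4% (EVI1 replicate 1), and the median log2 ratios against 1 untreated library at -1.11 for CTBP2 replicate 1 and at -0.054 and -0.43 for EVI1 replicates 1 and 2. With quintiles of strength by untreated CTBP2 replicate 2 in place of replicate 1, also chosen after seeing the data, the promoter share of core minus other sites was -1.56 percentage points in the strongest quintile and 7.24, 15.3, 10.6 and 9.72 in the next 4, all negative by replicate 1. The RUNX share of core minus other sites was 6.45 in the strongest and -0.042, -2.67 and -1.40 in the next 3, all positive by replicate 1. Of 168 alternatives in all, 127 stayed within the spread or within 1.5 times the count reported, 34 moved further, and 7, those of the quintiles, changed sign. The cause of these shifts was not tested, beyond the fewer sites that stricter calls leave by construction.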

Other observations

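Chromosomes differed in how much of their starting set was core. On chromosome X 31 of 779 sites were core (3.98%; 2.82 to 5.59), and on chromosome 4 the share was 9.97% (8.38 to 11.8), against 8.19% over all sites. Of 60 sites in the major histocompatibility complex region of chromosome 6, 0 were core (upper limit 6.02%), as were 0 of 320 on alternative haplotype sequences (upper limit 1.19%). The lists do not say how reads that align to several places were treated, and the part of this in these counts was not tested. Per length, chromosome 19 had most core sites (3.06 per Mb) among the numbered chromosomes, where X had 0.200 per Mb. Of the 2336 sites on chromosome 19, however, 181 were core (7.75%; 6.73 to 8.90), an interval that includes the 8.19% over all sites.

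Starts of genes on both strands within 1 kb of the summit were found at 57 of 688 core promoter sites (8.28%; 6.45 to 10.6) and at 12.3% of other promoter sites. Core promoter sites were wider than distal ones, with a median of 1483.5 bp within 1 kb of a TSS and 959 bp over 10 kb away. Of the core sites within 1 kb of a TSS, 47.4% (43.7 to 51.1) had their summit upstream of it, against 44.9% of the other sites there.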
